A study of Homo sapiens with 7 samples.

Results

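The comparison described here set 3 RNA sequencing libraries labelled RY against 2 labelled WT, which is 5 of the 7 libraries of the study, across all genes with enough reads to be tested, 18281 of 60666 gene identifiers. All libraries are labelled as RPMI 8226, a human cell line of multiple myeloma, the cancer of antibody-secreting plasma cells. WT denotes unedited cells. RY denotes cells in which CRISPR-Cas9 changed 2 residues of the zinc finger by which the deacetylase HDAC6 binds ubiquitin. The remaining 2 libraries, labelled KO, came from cells with an HDAC6 knockout and appear below only as a reference level. All cells grew in the same serum-supplemented medium and no treatment separated the groups. The labels say neither that libraries came from separate cultures nor whether the edited cells were a clone or a pool. The p-values therefore reflect only how far these libraries differ among themselves, possibly for technical reasons, and the edit cannot be told apart from other differences between the lines.

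Plasma cells arise from B cells when the transcription factors IRF4 and PRDM1 switch on antibody secretion and switch off earlier B cell genes, while XBP1 enlarges the endoplasmic reticulum. Myeloma cells usually keep this program, and in some tumours a chromosome translocation adds high expression of MAF, a leucine zipper factor. Granulocytes and monocytes instead form under CEBPA, GFI1 and SPI1, and immature blood progenitors are marked by HOXA genes and their partner MEIS1. The comparison was read as counts over 26 gene lists for such lineages, holding 505 distinct genes, of which 364 were tested.

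HDAC6 (ENSG00000094631, chrX:48801377-48824982, GRCh38) was checked first. Its level was 57.2 and 77.3 CPM (read counts relative to the scaled library size) in the WT replicates, 90.4, 110.4 and 96.5 CPM in the libraries labelled RY, and 19.0 and 12.8 CPM in KO. Every RY value lay above every WT value, by 0.56 on the log2 scale (SE 0.18, adjusted p = 0.0214), or 1.47-fold. This was short of the 2-fold minimum, so HDAC6 was not called. The adjusted p was 0.0588 with a replicate block, 0.0768 without WT replicate 1 and 0.0890 without RY replicate 2, and ran from 3.79e-05 to 1.00 across all alternatives. Gene counts do not show the 2-residue change itself.

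The libraries held 31368968 to 42813888 counted reads. The correlation of log2(CPM + 0.5) over genes, which are not independent, was 0.991 for the WT pair, 0.997 to 0.998 for the RY pairs, and 0.809 to 0.818 for a WT with an RY library. A gene was called changed at an adjusted p under 0.05 by the quasi-likelihood test of edgeR and a fold of at least 2. By this rule 8972 genes were called, 49.1% of those tested, with 4337 higher in RY (23.7%) and 4635 lower (25.4%), so that 48.3% of the calls were higher. Scaling by library size only turned this balance, with 4922 higher and 4155 lower (54.2% higher). For 14928 genes (81.7%) the RY and WT values did not overlap. The median log2 fold change over all genes was -0.03. The counts for each list below are to be read against these shares. The replicates within a group differed little: among genes averaging 10 CPM or more, the highest library was over 2-fold above the lowest for 157 of 9212 genes in WT (1.70%) and 1 of 9049 genes in RY (0.0111%). In bulk RNA, fewer cells of a type and less RNA per cell cannot be told apart.

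**Figure D1:**
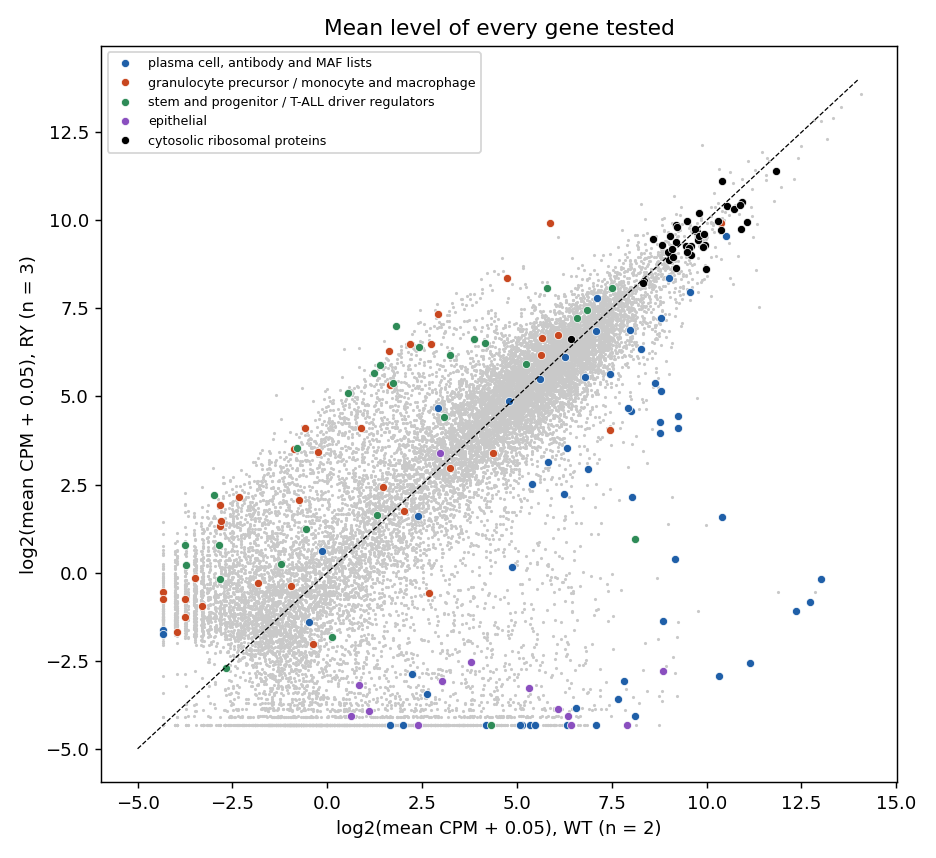
Mean level of each of the 18281 genes tested, as log2(mean CPM + 0.05), in WT (x axis, n = 2) and in RY (y axis, n = 3); the dashed line marks equal levels and coloured points are members of the lists named in the legend. Many plasma cell, antibody, MAF and epithelial genes lie toward the bottom right, most myeloid and progenitor genes above the line, and ribosomal protein genes near the line.

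Most plasma cell regulators and surface antigens tested were lower in the libraries labelled RY, several of them to 0 or near it. Of 19 list members 17 were tested, 11 fell, 0 rose and 6 were not called, with a median log2 fold change of -4.02. The summed level of the list was 8006 to 9798 CPM in WT and 637 to 697 CPM in RY. Most of the WT sum was ITGB7, at 6126 and 7419.7 CPM, which is also counted on the MAF list below, so the sum says little about the other members. Several markers that define the labelled cell type were thus at or near 0 in the libraries labelled RY. These 3 libraries did not match the markers of the labelled line, whether they come from it was not tested, and every RY value here is that of the libraries as labelled. IRF4 (ENSG00000137265, chr6:391739-411447), the factor on which myeloma cells depend, stood at 337 and 593 CPM in WT and at 0.10, 0.578 and 0.333 CPM in RY. It was 1388-fold lower (log2 -10.40, SE 0.45, adjusted p = 1.20e-07), or -11.13 on the log2 scale without RY replicate 2. POU2AF1, a coactivator of immunoglobulin transcription, had 227 and 328 CPM in WT, none in 2 of the RY libraries and 0.0302 CPM, a single read, in the other. PRDM1, which represses B cell genes, fell less, from 67 and 92.7 CPM to 13.2, 11.3 and 10.4 CPM (6.88-fold, log2 -2.78, SE 0.16, adjusted p = 5.31e-07).

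Surface antigens used to recognise or target myeloma cells went the same way. SDC1, the proteoglycan CD138, fell from 245 and 158 CPM to at most 0.050 CPM (5703-fold, log2 -12.36, SE 0.34, adjusted p = 9.48e-09). TNFRSF17, the survival receptor BCMA, stood at 41.3 and 48.2 CPM in WT and had 0 reads in all 3 RY libraries, at least 1717-fold lower against a floor of 3 reads over the group. CD38, an ectoenzyme, kept a low level, 5.43, 4.09 and 4.45 CPM against 63.2 and 88.1 CPM in WT (16.4-fold). CD320, the cobalamin uptake receptor, fell 3.49-fold and remained at 47.3 to 52.3 CPM. XBP1 was among the 6 members not called: 436 and 587 CPM in WT and 322, 308 and 353 CPM in RY (log2 -0.64, SE 0.14). The chemokine receptor gene CXCR4 overlapped between groups, at 70.2 and 27.9 CPM in WT and 40.4 to 50.7 CPM in RY. TNFRSF17, CD38, XBP1, CXCR4 and some other list members below fall outside the rule for named genes and were chosen after their values were seen.

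**Figure D2:**
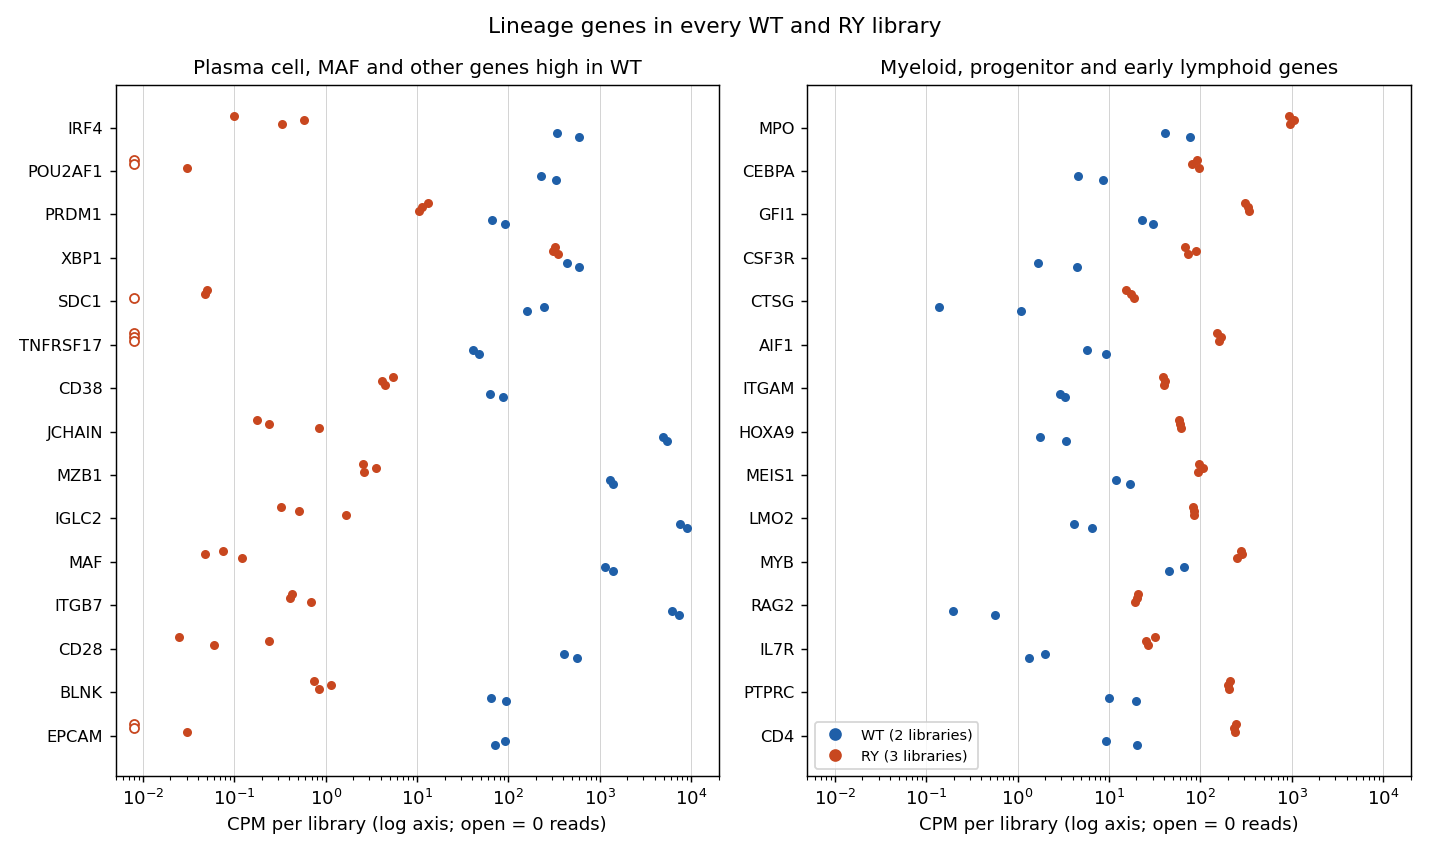
CPM in every library on a log axis for 15 genes with higher or similar levels in WT (left) and 15 with higher levels in RY (right); blue points are the 2 WT libraries, orange points the 3 RY libraries and open points libraries with 0 reads. On the left XBP1 nearly meets while IRF4, POU2AF1 and SDC1 are far apart, and on the right no RY point overlaps a WT point. The genes shown were chosen with their values known, and the groups did not overlap for 81.7% of all genes tested.

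Genes that assemble and secrete antibody fell broadly but to unequal depth. Of 20 members, all tested, 15 fell, 1 rose and 4 were not called (median log2 fold change -2.77). Their summed level was 11466 to 12989.8 CPM in WT and 1658 to 1708 CPM in RY. The promoters of MZB1 and SEC11C, chaperone and signal peptidase genes of this list, are shown because both fell and both hold ACGTGG, the core of sites bound by XBP1 and ATF6, marked here in capitals. MZB1 lies at chr5:139389864-139390163 on the minus strand, where a pair of matches on opposite strands overlap, and SEC11C at chr18:59139634-59139933 on the plus strand, where the match starts at position -41 from the gene start (RefSeq, GRCh38.p14, 250 bases before to 50 after the start, 5′ to 3′ on the gene's strand).
MZB1: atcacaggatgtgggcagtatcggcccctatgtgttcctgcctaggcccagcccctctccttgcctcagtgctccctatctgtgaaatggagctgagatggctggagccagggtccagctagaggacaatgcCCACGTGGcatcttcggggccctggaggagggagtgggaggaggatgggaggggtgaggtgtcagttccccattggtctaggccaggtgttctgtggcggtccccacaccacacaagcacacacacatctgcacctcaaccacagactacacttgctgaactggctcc
SEC11C: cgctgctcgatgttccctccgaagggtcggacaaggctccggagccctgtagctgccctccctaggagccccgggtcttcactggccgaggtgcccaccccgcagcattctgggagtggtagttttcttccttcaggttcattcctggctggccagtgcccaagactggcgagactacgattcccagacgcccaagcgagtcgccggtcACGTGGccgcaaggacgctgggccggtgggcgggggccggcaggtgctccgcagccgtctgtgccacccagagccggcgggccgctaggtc
With both strands searched, this core was in 7 of 18 list promoters (38.9%) and in 9.91% of the promoters of 27305 genes. It was 1 of 12 motifs searched and was chosen after the matches were seen. A match describes letters and does not show binding.

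MZB1, a chaperone of antibody assembly, fell from 1304 and 1388 CPM in WT to 2.55, 3.54 and 2.63 CPM in RY (459.8-fold, log2 -8.85, SE 0.18, adjusted p = 2.70e-09). JCHAIN, which joins antibody units into multimers, went from 4906 and 5485 CPM to 0.175, 0.241 and 0.847 CPM. Its log2 fold change was -13.66, or -14.58 without RY replicate 3, the RY library with the highest level. SEC11C stood at 443 and 441 CPM in WT and 37.0, 33.5 and 35.2 CPM in RY (12.5-fold). Some other members fell less: PDIA4, a disulfide isomerase, 2.98-fold, and SSR4, a subunit of the translocon-associated complex, 2.97-fold. HERPUD1, a further member, fell more than these, at a log2 fold change of -4.50, or -3.91 without WT replicate 2. PIM2, a survival kinase of plasma cells, had 359.6 and 849 CPM in WT and 21.0 to 22.5 CPM in RY, which is -4.80 on the log2 scale, or -4.06 without WT replicate 2. SDF2L1, SEL1L and CRELD2, which act in folding and disposal in the endoplasmic reticulum, were not called, with log2 fold changes of 0.07, -0.21 and -0.14. HSP90B1, a chaperone of the same compartment, missed the 2-fold minimum at -0.96 and passed it, at -1.04, in a fit of only the 5 libraries compared. EAF2, an elongation factor partner, was the 1 member that rose, from 6.25 and 8.80 CPM to 24.1 to 26.9 CPM.

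Immunoglobulin constant genes, which encode the fixed part of antibody chains, were nearly without reads in RY. Of 15 members 11 were tested, 10 fell and 1 rose. Their summed level was 10078 to 12184 CPM in WT and 0.795 to 2.21 CPM in RY. The median log2 fold change was -13.30, or -10.43 with genes without RY reads at their bound. IGLC2, a lambda light chain gene, stood at 7508 and 9129 CPM in WT and at 0.325, 0.506 and 1.66 CPM in RY (log2 -13.35, SE 0.48, adjusted p = 4.30e-08; -14.27 without RY replicate 3). IGKC, the kappa light chain gene, went from 205 and 244 CPM to 0.10, 0.0482 and 0.0605 CPM. The heavy chain genes IGHG4 and IGHG2 had 0 reads in RY and were at least 5157-fold lower and at least 3059.5-fold lower, respectively. Constant genes are near-identical copies, so the split of reads among them is uncertain. IGHM, the heavy chain made before class switching, was the 1 member higher in RY, with 0 reads in WT and 0.375, 0.169 and 0.272 CPM in RY.

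The genes switched on with MAF in translocated myeloma fell nearly as a whole. Of 10 members, all tested, 9 fell and 1 rose (median log2 fold change -5.52). MAF (ENSG00000178573, chr16:79585843-79600714) stood at 1149.7 and 1400.3 CPM in WT and at 0.0750, 0.0482 and 0.121 CPM in RY (16321-fold lower, log2 -13.92, SE 0.22, adjusted p = 1.39e-09). ITGB7, the integrin subunit that MAF induces for adhesion to stroma, fell from 6126 and 7419.7 CPM to at most 0.696 CPM (13687-fold). The 9 decreases ranged widely. The chemokine receptor gene CX3CR1 fell 35.3-fold, SPP1, which encodes osteopontin, 459-fold and DEPTOR, an inhibitor of mTOR, 28.5-fold, while the cell cycle gene CCND2 fell 2.14-fold and still had 110.0 to 124 CPM in RY. CCND2 was not called with library size only (log2 -0.90) or when tested against a fold of 2 (adjusted p = 0.127).

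B cell genes moved in both directions. Of 28 mature B cell genes 24 were tested, 11 rose, 10 fell and 3 were not called, with a median log2 fold change of 0.59. PAX5, the factor that holds B cell identity, had 0.555 and 1.07 CPM in WT and 9.75, 9.34 and 10.6 CPM in RY (11.9-fold, log2 3.59, SE 0.28, adjusted p = 4.20e-06). EBF1, its partner, had 0 and 0.0746 CPM in WT and 1.97 to 2.15 CPM in RY. It was 52.1-fold higher with a counting interval of 17.6 to 255, and its log2 value of 5.60 became 4.72 without WT replicate 1 and 9.23 without WT replicate 2. Some kinases and enzymes that signal from the antigen receptor also rose: PLCG2 from 42.2 and 45.7 CPM to 181 to 198 CPM, LYN 7.45-fold and BTK 3.34-fold. These 3 genes also serve myeloid cells. In the other direction CR2, the complement receptor CD21, fell from 83.9 and 92.8 CPM to at most 0.0605 CPM, and BLK, a B cell kinase, from 94.2 and 94.9 CPM to 2.33 to 2.94 CPM (35.9-fold). BACH2, which delays plasma cell formation, fell 5.00-fold, SPIB, an ETS factor, 4.43-fold, and BLNK, the adaptor that links BTK to the receptor, 86.7-fold. MEF2B was called at a log2 fold change of 1.02 and lost the call in 11 of the 14 alternatives, 6 of which left out a single library (KO replicate 1 or 2, RY replicate 1 or 3, or WT replicate 1 or 2, adjusted p = 0.0598 to 0.146 by edgeR).

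Most of the tested genes for presentation by HLA class II molecules, a property of B cells and other antigen-presenting cells, were lower. Of 15 members 13 were tested, 9 fell and 2 rose (median -1.50). CIITA, the master regulator of class II genes and a member of the B cell list, fell from 7.27 and 7.58 CPM to 0.350, 0.361 and 0.212 CPM (23.7-fold, log2 -4.56, SE 0.25, adjusted p = 4.43e-07). HLA-DRA, a class II chain, fell from 19.1 and 15.8 CPM to 0.650 to 0.968 CPM, and CD74, the invariant chain, from 561 and 614 CPM to 198 to 221 CPM (2.83-fold). HLA-DRB1, a partner chain of HLA-DRA, rose 4.47-fold, from 0.611 and 0.696 CPM to 2.58 to 3.51 CPM. Several of these decreases lost their call with a single library left out. HLA-DQA1, a class II chain, was called at -3.33 and missed the threshold without WT replicate 1 (-2.13, adjusted p = 0.244 by edgeR), RY replicate 1 (0.0747) or RY replicate 2 (0.0795). Without WT replicate 2 it stood at -4.03 and without RY replicate 3 at -5.21. The chain gene HLA-DPB1 (-2.12) lost its call without WT replicate 1 (adjusted p = 0.0892 by edgeR), and HLA-DMB (-1.63), which helps to load peptides, without WT replicate 2 (0.0925). Nearer the 2-fold minimum, RFX5, a class II promoter factor, stood at -0.99 (log2) once WT replicate 2 was left out, and CTSS, a processing protease, at -0.83 without that library and -0.94 without RY replicate 2.

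Genes of epithelial junctions, active in WT, were off in RY. Of 17 epithelial members 13 were tested, 12 fell, 0 rose and 1 was not called, with a median of -9.47, or -7.65 with genes without RY reads at their bound. DSP, which encodes desmoplakin, stood at 501 and 415 CPM in WT and at 0.0750, 0.0241 and 0.181 CPM in RY (5219-fold, log2 -12.30, SE 0.26, adjusted p = 2.75e-09; -13.09 without RY replicate 3). DSG2, a desmosomal cadherin, and KRT18, a keratin, had 236 and 242 CPM and 76.5 and 96.1 CPM in WT and no RY reads (at least 9139-fold lower for DSG2, at least 3316-fold lower for KRT18). The exception was CLDN4, a tight junction gene, at 7.27 and 8.30 CPM in WT and 10.3 to 10.7 CPM in RY. FN1, which encodes fibronectin, an adhesion ligand of the extracellular matrix, fell from 3638 and 3849 CPM to 0.450, 0.458 and 0.998 CPM (6138-fold, log2 -12.56, SE 0.44, adjusted p = 3.84e-08). On the same fibroblast and matrix list, of which 9 of 19 members were tested, COL5A1 also fell and 5 genes rose. Among those, SPARC, a collagen-binding matrix protein, rose from 3.19 and 7.68 CPM to 135 to 141 CPM (24.8-fold; log2 4.65, or 5.42 without WT replicate 2) and COL1A1, a collagen chain, 6.66-fold.

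In the opposite direction, granulocyte precursor genes formed the list with the largest median among those with at least 10 members tested. Smaller lists had larger medians: neuronal 4.83 (6 tested), mast cell 4.54 (4 tested) and hepatocyte 4.25 (2 tested). Of 20 granulocyte precursor members 16 were tested, 13 rose, 1 fell and 2 were not called. Their median log2 fold change was 4.14, or 4.04 with genes without WT reads at their bound. The summed level was 1509 to 1819 CPM in WT, 2564 to 2809 CPM in RY and 1429 to 1606 CPM in KO. MPO, the most abundant member that rose, held only 41.5 and 76.4 CPM of the WT sum, and 0.0844 and 3.51 CPM in KO. Much of the WT sum came from members that did not rise, so it is no measure of those that did. The promoters of CSF3R, the receptor for granulocyte colony-stimulating factor, and RNASE2, an eosinophil granule ribonuclease, are shown because both genes rose and both hold TTGCNNAA, the form of sites bound by C/EBP factors such as CEBPA, marked here in capitals. CSF3R lies at chr1:36483265-36483564 on the minus strand, with its match starting at position -206 from the first listed start, and RNASE2 at chr14:20955237-20955536 on the plus strand, with its match at position -145 (RefSeq, GRCh38.p14).
CSF3R: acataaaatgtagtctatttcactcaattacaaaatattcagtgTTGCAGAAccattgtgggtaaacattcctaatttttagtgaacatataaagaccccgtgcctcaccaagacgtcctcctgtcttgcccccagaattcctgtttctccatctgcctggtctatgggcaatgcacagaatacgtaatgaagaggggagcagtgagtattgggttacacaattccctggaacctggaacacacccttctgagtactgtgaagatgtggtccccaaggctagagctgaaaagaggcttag
RNASE2: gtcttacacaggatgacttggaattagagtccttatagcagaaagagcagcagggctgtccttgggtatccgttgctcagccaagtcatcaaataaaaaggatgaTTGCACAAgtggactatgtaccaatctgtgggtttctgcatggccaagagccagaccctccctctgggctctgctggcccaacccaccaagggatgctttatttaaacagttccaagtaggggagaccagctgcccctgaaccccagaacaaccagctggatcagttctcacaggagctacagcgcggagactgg
This form was in 5 of 13 promoters of the list (38.5%) and in 10.6% of those of 27305 genes, with both strands searched, and it too was chosen after the matches were seen. Among control promoters it was in 5 of 29 of ribosomal protein genes (17.2%) and 2 of 26 of proteasome genes (7.69%). The 5 list promoters include RNASE2 and RNASE3, which are of the same family and need not be independent.

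MPO (ENSG00000005381, chr17:58269856-58280935), the peroxidase of granulocyte precursors, stood at 41.5 and 76.4 CPM in WT and at 931, 1057 and 953 CPM in RY (16.4-fold, log2 4.05, SE 0.63, adjusted p = 0.000355). CEBPA (ENSG00000245848, chr19:33299934-33302564), the factor that opens granulocyte development, had 4.55 and 8.67 CPM in WT and 90.9, 80.3 and 97.3 CPM in RY (13.2-fold, log2 3.75, SE 0.25, adjusted p = 1.66e-06). GFI1, a repressor that favours granulocytes over monocytes, rose from 22.8 and 30.2 CPM to 311, 335 and 342 CPM (12.3-fold). CEBPE, which acts later in granule formation, rose from 0.139 and 0.0497 CPM to 2.05, 3.30 and 2.72 CPM. CSF3R stood at 1.67 and 4.42 CPM in WT and 67.5, 90.8 and 74.2 CPM in RY, which is 4.66 on the log2 scale, or 5.53 without WT replicate 2. RNASE2 stood at 0.250 and 0.746 CPM in WT and 11.1 to 12 CPM in RY (log2 4.49, or 5.49 without WT replicate 2). CLEC11A, a growth factor for progenitors, rose from 2.66 and 6.31 CPM to 81.9 to 94.4 CPM (log2 4.32, or 5.07 without WT replicate 2). ELANE, a granule elastase, had 0.400 to 0.771 CPM in RY and 0 reads in WT. SRGN, which packs granule proteins, was the 1 member that fell, from 163 and 189 CPM to 15.2 to 17.6 CPM (10.6-fold). SERPINB1, a granulocyte protease inhibitor, was called at a log2 fold change of 1.01 and lost the call without WT replicate 1 (0.78), without RY replicate 1 (0.98) and without KO replicate 2 (0.98).

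Monocyte and macrophage genes rose in part. Of 27 members 20 were tested, 12 rose, 2 fell and 6 were not called, with a median of 3.00. AIF1, an actin-binding protein of macrophages, rose from 5.80 and 9.19 CPM to 152, 169.7 and 161 CPM (21.2-fold, log2 4.42, SE 0.19, adjusted p = 1.23e-07). ITGAM, the integrin CD11b, rose from 2.89 and 3.28 CPM to 39.0 to 40.7 CPM (12.9-fold), FCGR2A, an Fc receptor, 9.32-fold and CSF2RA, a receptor chain for GM-CSF, 13.5-fold. KLF4, a factor of monocyte differentiation, rose 7.48-fold to 4.05 to 4.25 CPM. SPI1, the regulator PU.1 shared by myeloid and B cells, was not called, with 49.8 and 49.4 CPM in WT and 75.8, 68.0 and 75.1 CPM in RY (log2 0.56). Other members had few or no reads: S100A8, S100A12, FCN1 and MARCO had 0 reads in all 5 libraries. CD14, a receptor for bacterial lipopolysaccharide, was lower in RY, at 0.0907 to 0.275 CPM against 0.749 and 0.696 CPM in WT, a call lost with the replicate block (adjusted p = 0.0543 by edgeR) and when tested against a fold of 2 (0.0575). MRC1, the macrophage mannose receptor, fell from 5.33 and 7.28 CPM to 0.506 to 0.786 CPM.

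Progenitor genes rose together with factors of the HOXA cluster. Of 23 stem and progenitor members 18 were tested, 12 rose, 3 fell and 3 were not called, with a median of 2.32. HOXA9 (ENSG00000078399, chr7:27162435-27175180), a homeobox factor of progenitor self-renewal, stood at 1.75 and 3.40 CPM in WT and at 58.4, 59.5 and 61.3 CPM in RY (22.7-fold, log2 4.52, SE 0.32, adjusted p = 2.19e-06). Its neighbours followed, with HOXA10 21.7-fold, HOXA7 24.0-fold and HOXA5 21.6-fold higher, and genes of 1 cluster are not independent. MEIS1, the DNA-binding partner of HOXA9, rose from 12 and 17 CPM to 93.8 to 106 CPM (6.77-fold), and PBX3, a further partner, 2.57-fold. ANGPT1, a ligand of the stem cell niche, rose 7.60-fold. CD34, the progenitor surface marker, rose from 0.0278 and 0.124 CPM to 3.30, 5.42 and 4.87 CPM (log2 5.79, but 5.15 without WT replicate 1 and 7.18 without WT replicate 2). MYCN, a MYC family factor, had 19.8 and 19.9 CPM in WT and 0 reads in RY (at least 758-fold lower), and CD109, a surface glycoprotein, fell 148-fold from 271 and 283 CPM. RUNX1, a regulator of blood stem cells, was not called, at 96.2 and 94.9 CPM in WT and 145 to 154 CPM in RY.

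Most tested regulators listed here as drivers of T-cell leukaemia, several of which also act in normal stem cells, were higher. Of 15 members 10 were tested, 7 rose, 0 fell and 3 were not called, with a median of 2.75. LMO2, a bridging protein of the progenitor complex with TAL1 and LYL1, rose from 4.11 and 6.49 CPM to 83.2, 86.2 and 84.3 CPM (15.8-fold, log2 3.99, SE 0.19, adjusted p = 1.89e-07). LYL1 rose from 15.2 and 20.2 CPM to 81.9 to 102 CPM, MYB, a factor of proliferating progenitors, 4.98-fold to 255 to 283 CPM, and HHEX, a homeobox factor, 12.5-fold. ZEB2, a zinc finger repressor, rose from 2.22 and 4.67 CPM to 127, 138 and 121 CPM (log2 5.21, or 5.85 without WT replicate 2). TAL1 itself was at 1.5 to 1.88 CPM in RY against 0.0278 and 0.149 CPM in WT (log2 4.14, but 3.44 without WT replicate 1 and 5.73 without WT replicate 2). The homeobox drivers TLX3 and NKX2-5 had 0 reads in all 5 libraries.

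Early lymphoid genes rose in a few members rather than as a list. Of 18 members 14 were tested, 6 rose, 2 fell and 6 were not called (median 0.54). RAG2, a subunit of the recombinase of antigen receptor genes, went from 0.194 and 0.572 CPM to 20.9, 20.5 and 19.4 CPM (51.7-fold, log2 5.69, SE 0.34, adjusted p = 1.94e-06; 6.67 without WT replicate 2). Its partner RAG1 was not called, at 3.16 and 4.87 CPM in WT and 3.63 to 4.26 CPM in RY. IL7R, the receptor for interleukin 7, rose 17.2-fold to 25.2 to 32.0 CPM, and SOX4, a factor of early B and T cells, 17.9-fold to 135 to 148 CPM. MME, the peptidase CD10 of early B cells, went the other way, from 20.3 and 23.9 CPM to a single read over the 3 RY libraries. TCF12, an E protein, was called at 1.07 and missed the 2-fold minimum at 0.99 in a fit of only the 5 libraries compared.

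T cell genes moved in both directions. Of 16 T lineage regulators 14 were tested, 6 rose and 4 fell, and of 32 genes of the T cell receptor and its signalling 18 were tested, 6 rose and 8 fell, with medians of 0.35 and -0.70. SATB1, a chromatin organiser of thymocytes and progenitors, rose from 24.5 and 64.9 CPM to 266, 232 and 237 CPM (log2 2.45, or 3.31 without WT replicate 2). ETS1, a lymphoid factor, rose 3.38-fold and TOX, a thymocyte factor, 16.8-fold (log2 4.08, or 4.73 without WT replicate 2), while NOTCH1, the receptor that commits cells to the T lineage, fell 3.78-fold to 44.7 to 50.4 CPM. CD4, a coreceptor also found on monocytes and progenitors, stood at 9.19 and 20.1 CPM in WT and 244, 233 and 239 CPM in RY (16.0-fold; log2 4.02, or 4.69 without WT replicate 2), and FYN, a kinase of receptor signalling, rose 11.5-fold. CD28, the costimulatory receptor that myeloma cells also carry, fell from 404 and 568 CPM to 0.0250, 0.241 and 0.0605 CPM (log2 -12.02, or -13.43 without RY replicate 2). CD8B, a coreceptor chain, stood at 421 and 435 CPM in WT and had 0 reads in RY, at least 16365-fold lower. THEMIS, a signalling protein of developing T cells, fell 117-fold. CD3D, CD3E, CD3G and LCK, which define the receptor complex, had too few reads to be tested, with at most 0.544 CPM in any of the 5 libraries.

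**Figure D3:**
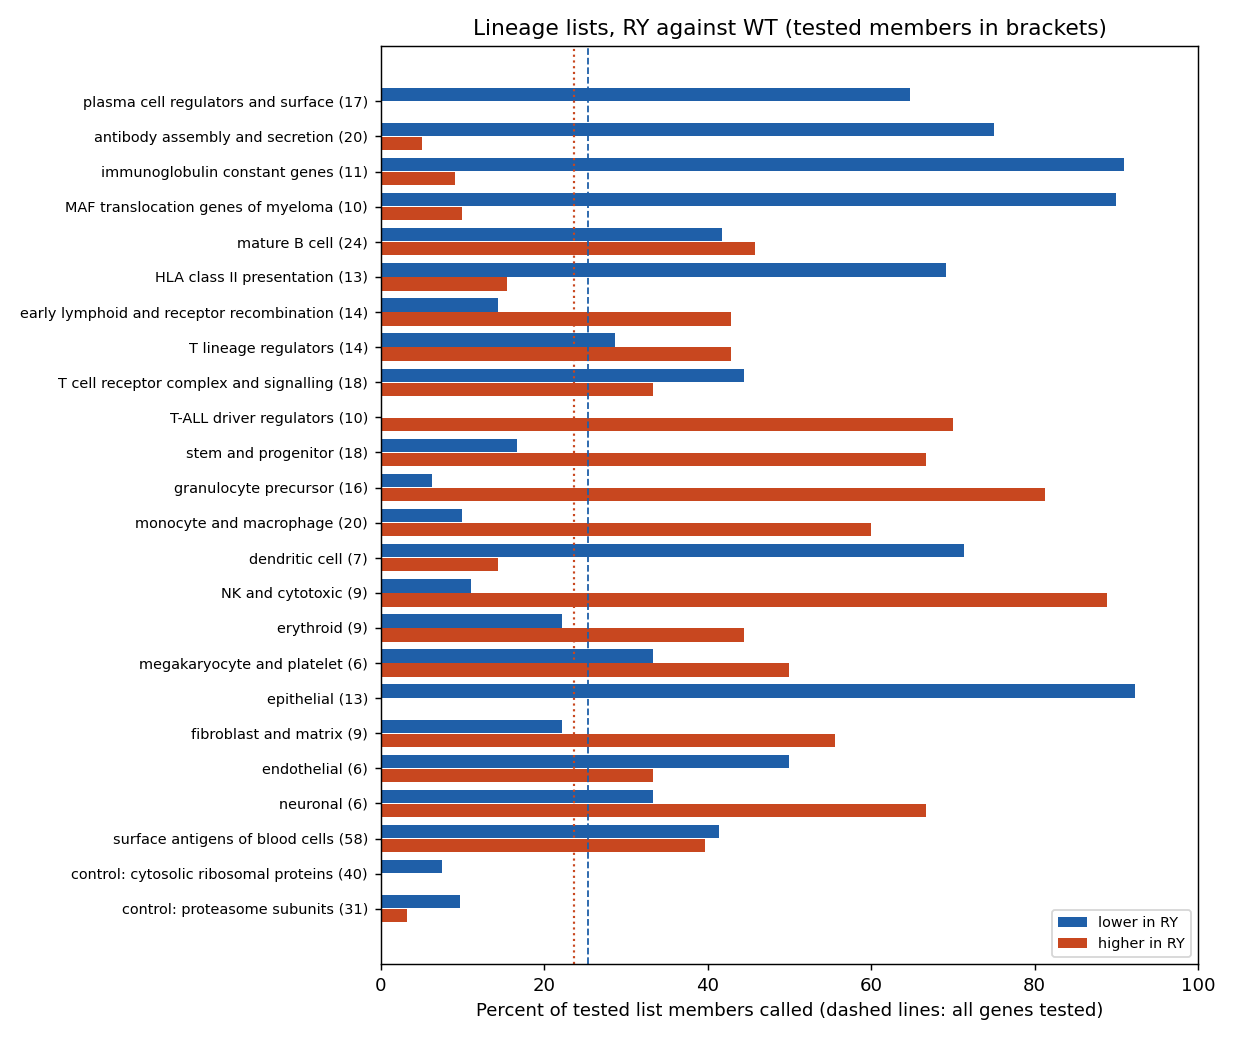
Percent of tested members called lower (blue) and higher (orange) in RY for the 24 lists with at least 6 members tested; the number tested follows each name, and the dashed and dotted lines mark the shares over all genes, 25.4% lower and 23.7% higher. Plasma cell, antibody, immunoglobulin, MAF, HLA class II, dendritic cell and epithelial lists reach 64.7% to 92.3% lower, NK, granulocyte and T-ALL driver lists 88.9%, 81.2% and 70.0% higher, and ribosomal and proteasome lists lie under both lines.

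The remaining blood lineages were close to absent in both groups apart from a few genes. Among 18 NK and cytotoxic genes 9 were tested, 8 rose and 1 fell, but the granzymes GZMA and GZMB had 0 reads in all 5 libraries. KLRF1, a lectin receptor, reached 8.19 to 9.34 CPM in RY against 0.194 and 0.224 CPM in WT, and NCAM1, the adhesion molecule CD56 carried by many myelomas, fell from 268 and 274 CPM to 91.9 to 96.7 CPM. Of 16 dendritic cell genes 7 were tested, 5 fell and 1 rose. TCF4, the factor of plasmacytoid dendritic cells, which is shared with plasma cells, fell 7.64-fold to 55.2 to 72.7 CPM and IRF7, an interferon regulator, 10.9-fold. Of 25 erythroid genes 9 were tested, 4 rose and 2 fell. GYPC, a membrane glycophorin found in many blood cells, rose from 3.25 and 6.46 CPM to 79.9 to 84.0 CPM (16.4-fold), while HBB and GATA1, which mark red cell precursors, had 0 reads in all 5 libraries. Of 15 megakaryocyte genes 6 were tested, 3 rose and 2 fell. FLI1, an ETS factor of blood and vessels, rose 2.39-fold to 222 to 231 CPM and CD9, a tetraspanin, fell from 288 and 373 CPM to at most 0.241 CPM, while PF4 and PPBP had 0 reads. ITGA2B, GP6 and VWF, of the same list, were called and lost the call with a single library left out, namely WT replicate 1 (adjusted p = 0.109) or RY replicate 2 (0.0635) for ITGA2B, WT replicate 2 (0.0775) for GP6, and either WT replicate or RY replicate 1 or 2 for VWF (0.0661 to 0.145). The 4 mast cell genes tested, of 10, all rose, with TPSAB1, a tryptase, at 3.65 to 4.84 CPM in RY, though CPA3 and CMA1 had 0 reads there.

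Few genes of the endothelial, neuronal and hepatocyte lists had enough reads to be tested. Of 13 endothelial genes 6 were tested, 3 fell and 2 rose. EGFL7, a vascular matrix protein that is also made by blood progenitors, went from 95.2 and 106 CPM to 0 reads in RY, and CDH5 and CLDN5, which define endothelium, had 0 reads throughout. ESAM, an adhesion molecule, was called at 1.06 and fell short at 0.82 without WT replicate 1 and 0.97 without RY replicate 3. Of 17 neuronal genes 6 were tested, 4 rose and 2 fell: GRIA4, a glutamate receptor subunit, went from 103 and 117 CPM to 0 reads, and NEGR1, an adhesion molecule, rose from 0.222 and 0.944 CPM to 34.7, 40.8 and 37.8 CPM (log2 5.97, but 5.31 without WT replicate 1 and 7.38 without WT replicate 2). SNAP25 and STMN2, which define neurons, had 0 reads. Of 13 hepatocyte genes 2 were tested and both rose, with SERPINA1, a protease inhibitor also made by myeloid cells, at 8.41 to 9.78 CPM, and ALB had 0 reads throughout.

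Surface antigens of blood cells differed in level in both directions. Of 65 antigens 58 were tested, 23 rose, 24 fell and 11 were not called. PTPRC, the common leukocyte phosphatase CD45, which plasma cells often lose, stood at 10.1 and 20 CPM in WT and 214, 203 and 205 CPM in RY (13.5-fold, log2 3.78, SE 0.28, adjusted p = 2.80e-06). CD44, the hyaluronan receptor, rose 18.5-fold, FUT4, which builds the CD15 sugar of granulocytes, 20.1-fold, and CD164, a sialomucin of progenitors, 3.82-fold from 209 and 230.4 CPM. CD81, a tetraspanin of B and plasma cells, fell from 113 and 98.6 CPM to 4.18 to 4.55 CPM (24.3-fold), CD86, a costimulatory ligand, 12.6-fold, and the complement inhibitors CD59 and CD55 5.46-fold and 3.65-fold. CD47, a signal against phagocytosis, and the myeloid lectin CD33 were not called, with log2 fold changes of 0.16 and 0.65, CD33 having 70.5 and 65.5 CPM in WT and 97.3 to 118 CPM in RY.

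**Figure D4:**
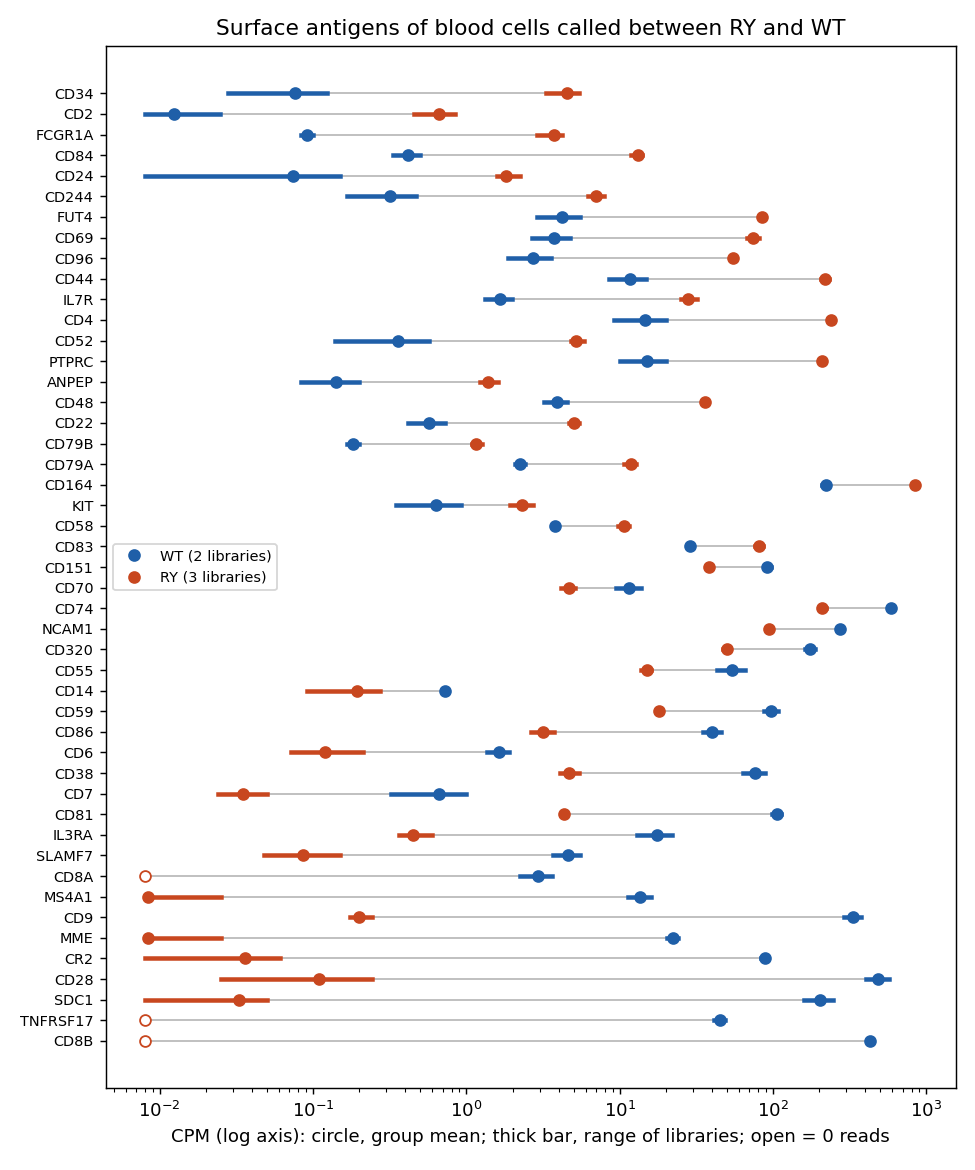
Mean CPM (circles, log axis) of the 47 surface antigens called, ordered by log2 fold change, in WT (blue, n = 2) and RY (orange, n = 3); thick bars span the libraries of a group, libraries without reads are drawn at the left edge, and open circles mark groups with 0 reads. TNFRSF17, CD8A and CD8B have no RY reads, and every called antigen has some WT reads.

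Among the 83 genes marked as regulators on these lists 73 were tested, 37 rose, 16 fell and 20 were not called. Over all genes tested 23.7% were called higher and 25.4% lower, so falls were no more frequent among regulators than among all genes. Among those that fell were plasma cell, B cell and dendritic cell factors (IRF4, PRDM1, POU2AF1, MAF, BACH2, CIITA, SPIB, TCF4, IRF7), with RFX5, HES4, HLF, MYCN, NOTCH1, TCF7 and TOX2 besides. Among those that rose were progenitor and myeloid factors (HOXA9, MEIS1, LMO2, LYL1, MYB, GFI1, CEBPA), with PAX5, EBF1 and MEF2B of the B cell list, BATF3 of the dendritic cell list (log2 1.91) and members of the T, NK and erythroid lists such as GATA3, TOX, EOMES and KLF1. Among the 20 not called were IKZF1, RUNX1, SPI1, MEF2C and TCF3, whereas the blood factors FLI1, ETS1, ERG and TCF12 were among the 37 that rose.

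Control lists moved little. Of 40 cytosolic ribosomal protein genes 0 rose, 3 fell and 37 were not called (median -0.21), and of 31 proteasome subunits 1 rose, 3 fell and 27 were not called (median -0.14). RPL35 was the ribosomal gene with the largest fall, 2.60-fold, from 1034 and 994 CPM to 378 to 399.8 CPM. With library size only, RPL7A missed the 2-fold minimum, at a log2 fold change of -0.93. PSMA4 rose 2.97-fold and PSMD4 fell 2.64-fold, while PSMB4 and PSMB7 lost the call without WT replicate 1 (-0.82 and -0.81).

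Genes were then counted as on in a group and off in the other. With on set at 10 CPM or more and off under 0.1 CPM, 421 genes (2.30% of those tested) were on in WT and off in RY, and 0 were on in RY and off in WT. Of the 421, 359 were protein-coding, 183 had 0 reads in all 3 RY libraries, and 343 were at 10 CPM or more in KO. With on at 5 CPM the counts were 601 and 4, and with off at 0.5 CPM they were 574 and 16. Genes high in RY and low in KO stood at medians of 4.04% and 7.09% of their RY level in the WT replicates, so few of them could fall under the off limit in WT, and the unequal counts are no measure of how many genes each group expressed alone. The 8 largest decreases by fitted value were CD8B, LINC01287, DSG2, TEAD1, IGHG4, BLMH, GRIA4 and EGFL7, all with 0 RY reads, so their fitted values depend on the prior count and give no order. TEAD1, the DNA-binding partner of the growth regulator YAP, had 132 and 149.9 CPM in WT, and BLMH, a cytoplasmic peptidase, 128 and 102 CPM. The 8 largest increases were MUC19, NEGR1, INHBA, RAG2, AFF2, ZMAT1, SATB1-AS1 and MMP2. INHBA, an activin subunit, stood at 0.805 and 1.81 CPM in WT and 84.8, 79.0 and 80.5 CPM in RY (60.9-fold; log2 5.94, or 6.65 without WT replicate 2), and MMP2, a matrix metalloprotease, at 0.361 and 1.47 CPM and 32.5 to 37.3 CPM (log2 5.25, but 4.59 without WT replicate 1 and 6.6 without WT replicate 2). MUC19, a gel-forming mucin, reached 28.1 to 41.0 CPM (log2 6.52, or 7.58 without WT replicate 2) and AFF2, a nuclear protein, 79.9 to 86.8 CPM (47.6-fold). SATB1-AS1 lies antisense to SATB1, and since the strand setting of the counting is not given in the sources used here, reads of the pair cannot be told apart.

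Genes high in RY and nearly absent in KO stood at a similar low share of their RY level within each WT library. Over the 210 genes called higher with at least 20 CPM in RY and a KO level under 1% of it, the WT level was a median of 4.04% of the RY mean in WT replicate 1 (quartiles 3.08% and 5.44%) and 7.09% in WT replicate 2 (5.92% and 8.57%). Replicate 2 exceeded replicate 1 for 205 of the 210. The same medians were 0.111% and 0.291% in the KO replicates, where the selection fixed a low level. For the 20 of these genes that belong to blood lineage lists, from MPO to RAG2, the median was 3.60% in replicate 1 (0.958% to 7.25%) and 6.47% in replicate 2 (2.82% to 9.74%). CEBPA stood at 5.09% and 9.69%, HOXA9 at 2.93% and 5.70%, CD4 at 3.85% and 8.43%, and PTPRC at 4.86% and 9.67% of the RY mean in WT replicates 1 and 2. IL7R was the 1 gene of the 20 with the higher share in replicate 1, 7.05% against 4.71%. Across all 4337 genes called higher, most of which KO also carried, the medians were 13.5% and 18.3%. The part of this common WT level in the size of the increases was not tested.

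**Figure D5:**
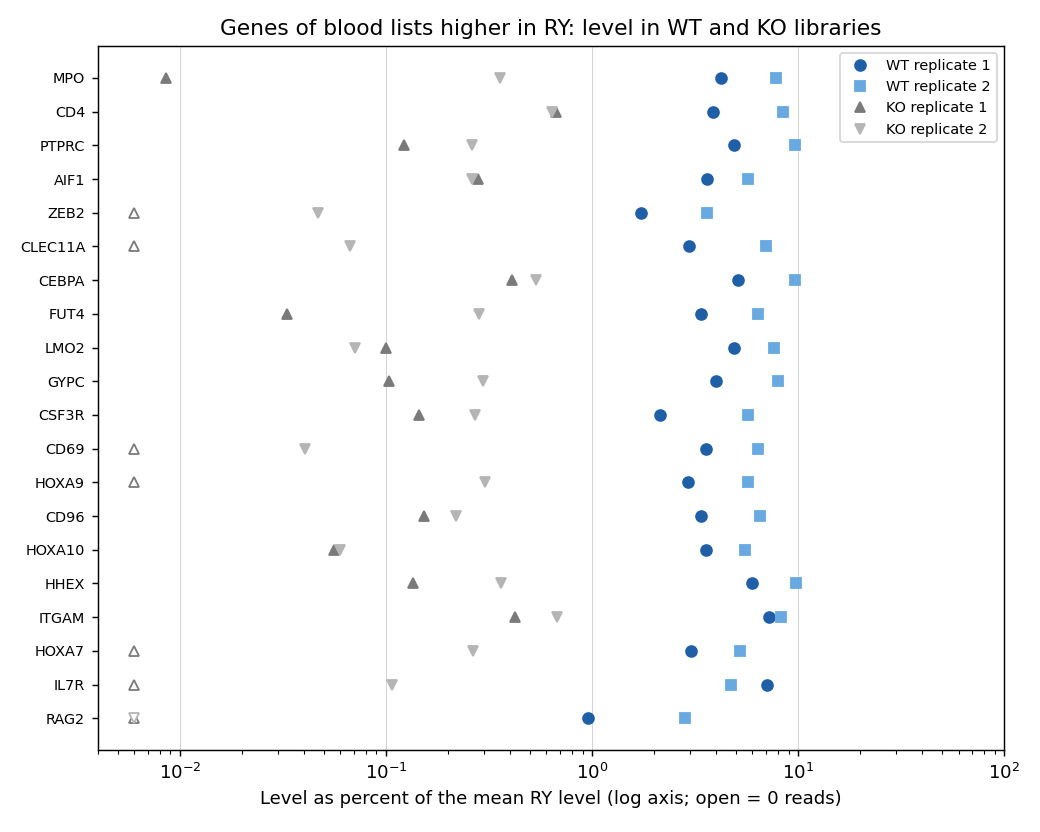
Level of the 20 blood lineage genes higher in RY with at least 20 CPM there and a KO level under 1% of it, as a percent of the mean RY level on a log axis; dark circles and light squares are WT replicates 1 and 2, triangles the KO replicates, and open symbols libraries with 0 reads. Replicate 2 of WT lies to the right of replicate 1 for 19 of the 20 genes, and KO lies under 1% for all by selection.

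The calls were set beside the authors' deposited table of RY against WT, which comes from the same counts and is no independent evidence. The authors' deposited table lists 4590 genes as higher and 5287 as lower, each changed by 1.00 or more on the log2 scale. Of the genes called higher here 99.2% are listed higher in the authors' deposited table, and of those called lower 99.0% are listed lower, with 0 in the other direction. In reverse, 93.7% of the genes listed higher and 86.8% of those listed lower in the authors' deposited table were called here.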

How the data were processed

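RNA from 7 libraries was measured by sequencing of TruSeq stranded libraries, per the labels' protocols. The authors deposited raw counts of reads for each Ensembl gene. Named in the submitters' processing notes, without roles, are the GRCh38 build, edgeR 1.34.1, HTSeq 0.9.1, STAR 2.7.4 and FastQC. The strand setting of the counting is not given in the sources used here. The authors' deposited table of RY against WT gives each gene's log2 fold change and adjusted p-value, and was used only for the closing comparison of calls; their normalized table and their table for KO were not used.

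Symbols were matched for 60437 of 60666 identifiers and positions for 58420 (GENCODE release 29). Counts of all 7 libraries, 31368968 to 42813888 per library, were fitted together with edgeR 4.0.16 in R 4.3.3 (limma 3.58.1, TMM, filterByExpr with a minimum count of 10, quasi-likelihood test, Benjamini-Hochberg adjustment over 18281 genes). Groups and replicates came from the sample titles, and the model held the groups alone. CPM are counts over TMM-scaled library sizes. A fold divides the pooled level of a group (reads over scaled library sizes) by that of the other. For a group with 0 reads a floor of 3 reads was used (0.0393 CPM in WT, 0.0262 in RY), giving a lower bound. For 1 to 3 reads a 95% counting interval is given. Floors and intervals cover counting error only.

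Members and lists were chosen with earlier results of these data known, and no list was tested as a set. The genes to be named were HDAC6, up to 5 called members per list with the highest mean CPM in the higher group, called regulators (up to 6 by the same order), the 3 most abundant members of a list with fewer than 2 called, the 8 largest changes in each direction with at least 20 CPM, and the 8 most abundant called genes outside the lists in each direction. On simulated data (17336 genes) the test recovered 100% of 87 genes changed by 2 and of 113 changed by 3 on the log2 scale, with 2 false calls. The simulation gave every gene the same spread and changed only these genes, whereas 49.1% of the genes tested were called in the real data. It therefore does not show how the test performs under changes this broad. Promoters came from RefSeq tables, taking the first listed start, for 344 of the 505 list genes. Alternatives were relative log expression factors, library size only, DESeq2 1.42.0, no low-count filter, only the 5 libraries compared, a test against a fold of 2 (glmTreat), a replicate block and each library left out. A few genes of the lists that are counted are not reported here by name.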

Additional observations from a re-analysis of the deposited data

How the results depend on the processing

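Of the 157 genes named by the rule, HDAC6 not counted, 139 kept their call in each of the 14 alternatives that tested them. None of the 157 changed the sign of its log2 fold change. Genes named outside the rule are not part of this count. Library size only moved the median over all genes from -0.03 to 0.16, and the median was 0.02 with no low-count filter. Library size only gave 1 megakaryocyte gene lower, 1 ribosomal gene higher and 1 lower, and 1 proteasome gene lower. DESeq2 gave 1 megakaryocyte gene lower. With no low-count filter, 4 early lymphoid, 1 T-ALL driver, 2 NK and 4 neuronal genes were lower. Only the 5 libraries compared gave 1 endothelial gene higher. Tested against a fold of 2, the lower counts were 4 for HLA class II and 1 each for monocyte, megakaryocyte and proteasome genes, the higher counts 1 each for megakaryocyte and endothelial genes, and HDAC6 kept 0.56 with adjusted p = 1.00. The replicate block gave 1 endothelial gene higher and 0.58 for HDAC6 (adjusted p = 0.0588). The labels give the replicate numbers no meaning, and deviations of same-numbered libraries correlated at 0.106 and 0.162 over only 2 pairs. Genes on in RY and off in WT numbered 4 and 16 at the other limits. Leaving out each library in turn gave 8569 to 9467 genes changed, 0 to 1 higher for the plasma cell, immunoglobulin and MAF lists, 0 to 1 lower for T-ALL drivers, 2 to 4 lower for monocyte, 1 to 3 lower for megakaryocyte, 1 to 3 higher for endothelial, 1 to 2 higher and 1 to 3 lower for proteasome genes, 0 to 1 genes on in RY and off in WT, and 0.35 to 0.79 for HDAC6. With 2 WT libraries, where leaving out either leaves a lone sample assumed to vary like the other groups, depth limits calls near a few reads and near 2-fold most.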

Other observations

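Outside the lists, the abundant genes that fell in RY included both parts of surface HLA class I. B2M, its light chain, stood at 2306 and 2878 CPM in WT and 954, 933 and 965 CPM in RY (2.75-fold, log2 -1.45, SE 0.11, adjusted p = 3.89e-06 by edgeR), and HLA-B, a heavy chain, at 2171 and 2515 CPM and 1046 to 1192 CPM (log2 -1.07, or -0.96 without WT replicate 2, which is short of the 2-fold minimum). FTL, the ferritin light chain that stores iron, fell 3.21-fold, PKM, a glycolytic enzyme, 2.37-fold, PPIB, a foldase of the endoplasmic reticulum, 3.61-fold, and AHNAK, a giant scaffold protein, from 2116 and 2907 CPM to 373 to 403 CPM. The mitochondrial transcripts MT-CYB and MT-ND5 were called at -1.13 and -1.02 and missed the minimum without RY replicate 1 (-0.96 and -0.89), MT-ND5 also without WT replicate 2 (-0.88).

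Among the abundant genes that rose, SLC7A5 and SLC3A2 encode the pair of chains that forms a transporter of large neutral amino acids. SLC7A5 went from 783 and 1099 CPM to 4936, 4058 and 4579.9 CPM (4.75-fold, log2 2.27, SE 0.19, adjusted p = 7.20e-06 by edgeR) and SLC3A2 from 265 and 398 CPM to 935 to 1162 CPM (3.13-fold). SLC38A1, a glutamine carrier, was called at 1.05 and stood at 0.86 without WT replicate 1. MKI67, a marker of dividing cells, rose from 368 and 255 CPM to 1354 to 1519 CPM (4.59-fold), and MSN, the membrane linker moesin, 2.98-fold. HSP90AA1, a cytosolic chaperone, had 1754 and 816 CPM in WT and 2717 to 2920.1 CPM in RY; its log2 fold change of 1.14 was 0.68 without WT replicate 2 and 1.79 without WT replicate 1.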
